A study of Homo sapiens with 2 samples.

Results

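The nectins are immunoglobulin-like adhesion molecules of the adherens junction, and 6 genes of this family were followed here: NECTIN1, NECTIN2, NECTIN3 and NECTIN4, the related poliovirus receptor PVR, and AFDN, which encodes the cytoplasmic partner afadin. They were 6 of the 19736 genes with a probe named through RefSeq on the arrays, and they were represented by 13 probes whose RefSeq accession belonged to one of them. On the arrays the nectins still carried older symbols such as PVRL2 for NECTIN2. The family was selected on measured values, because a probe of NECTIN2 was among the most increased on these same arrays. That the probes of NECTIN2 disagreed on these arrays was also known beforehand. The NECTIN2 values are therefore given as a description, without a test.

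RWPE-1 is a noncancerous, immortalised line of prostate epithelial cells, kept here in a supplemented serum-free keratinocyte medium. The cells received 30 nM of either a precursor of the microRNA miR-424 (pre-miR-424) or Negative control #1, so the groups shared the line, the medium and a transfection. Time after transfection was not given in the sources used here. Total RNA of the transfections was compared on 2 two-colour arrays, the array with normal labelling carrying pre-miR-424 RNA in Cy5 and the dye-swap array carrying it in Cy3. The submitters' design calls these arrays technical replicates, so they were counted as 1 replicate. Whether both arrays carried the same RNA extracts was not stated in the labels beyond this. The spread between the arrays was therefore not read as biological variation, no p-value was computed, and a difference between the transfections cannot be told apart from a difference between the cultures for other reasons.

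Nectins bind each other across the gap between neighbouring cells, without needing calcium, and their cytoplasmic ends bind afadin, which ties them to the actin cytoskeleton. In epithelia they help to place cadherins and then tight junction proteins at the forming cell contact. NECTIN2 and PVR are also read by lymphocytes: both are ligands of the activating receptor CD226 and of the inhibitory receptor TIGIT, and NECTIN2 is in addition the ligand of PVRIG. Several members were first known as virus receptors, NECTIN1 and NECTIN2 for herpesviruses and PVR for poliovirus.

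The transfected microRNA is shown because it is the agent of the comparison. The labels do not state which arm of the precursor acts, so both mature arms are given from RefSeq (GRCh38.p14), read 5′ to 3′, with bases 2 to 8, the seed, in capitals.
hsa-miR-424-5p: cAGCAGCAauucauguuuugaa
hsa-miR-424-3p: cAAAACGUgaggcgcugcuau
The 5p arm lies at chrX:134546680-134546701 and the 3p arm at chrX:134546644-134546664, both on the minus strand. The 5p seed was shared by 6 other mature microRNAs among the 2370 listed, miR-15a-5p, miR-15b-5p, miR-16-5p, miR-195-5p, miR-497-5p and miR-6838-5p. Probe and transcript sequences were not used here, so no match of the seed to a member was sought.

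All 13 probes, on 18 spots, exceeded background clearly in the Cy3 and the Cy5 channel of each array, and no spot was saturated or marked as an outlier. A probe that passed this flag of the scanner software is called measured. A log2 ratio is pre-miR-424 over control throughout, turned the same way on both arrays, and a probe was called when the ratio was at least 1 in size (2-fold) with the same sign on both. Of the epithelial marker genes 11 of 11 were measured, including CDH1, EPCAM and the keratins. Of the 19736 genes with a named probe 14046 were measured, so this count alone does not establish the identity of the line. The luminal prostate markers KLK3 and TMPRSS2 were not well above background, and of the markers of other cells 3 of 6 fibroblast and muscle genes, 3 of 6 immune genes and 1 of 4 endothelial genes were measured, none of them called. Median raw signals were 189 and 165 in Cy3 and 290 and 314 in Cy5. Across the 25981 measured probes the ratios of the arrays correlated only weakly (Pearson's r = 0.161 across probes, which are not independent replicates), and 25 probes followed the dye, differing at least 2-fold in opposite directions.

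NECTIN2 rose with pre-miR-424 at 1 of its 2 probes. At the probe designed on NM_001042724 the normalized log2 level was 11.37 and 11.36 with pre-miR-424 and 9.93 and 10.08 with control on the array with normal labelling and the dye-swap array. Both pre-miR-424 values lay above both control values, which is no separate support, because the probe was selected for its high ratio. The log2 ratios were 1.44 and 1.28, with a mean of 1.36 ± 0.11 (SD between the 2 arrays), a 2.57-fold difference. This probe was printed in 1 spot on each array, so agreement between spots could not be checked for it. The raw signals showed the same order in both labellings, with 3219 for pre-miR-424 in Cy5 against 782 for control in Cy3, and 1873 for pre-miR-424 in Cy3 against 1494 for control in Cy5. The Cy5 signal was thus 4.12 times the Cy3 signal on the first array and 0.798 times on the dye swap. At the other 17 spots of the family, Cy5 exceeded Cy3 on both arrays, by 1.22 to 1.92 times on the array with normal labelling and by 1.46 to 2.36 times on the dye swap. The probe ranked 7 among the 25981 measured probes by mean ratio. Of all measured probes 0.0577% were called higher and 0.0885% lower, and the NECTIN2 probe was the only 1 of the 13 family probes to be called in either direction. These shares, 15 probes higher and 23 lower, depended on the setting, with 9 higher and 22 lower under median centring, 22 and 48 with the scanner software's ratios, 53 and 36 on the array with normal labelling alone, and 42 and 94 on the dye swap alone. In bulk RNA of this kind, more RNA per cell and more cells carrying it cannot be told apart.

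The other NECTIN2 probe, designed on NM_002856, did not share this rise. Its log2 levels were 10.61 and 10.32 with pre-miR-424 and 10.27 and 10.51 with control, so the groups overlapped. Its log2 ratios were 0.34 and −0.19 (mean 0.07 ± 0.38), of opposite sign on the arrays. Its 2 spots gave the same picture within each array, at 0.34 and 0.34 on the array with normal labelling and at −0.11 and −0.27 on the dye swap. The 2 accessions are the curated RefSeq transcripts of the gene, the alpha form (NM_002856) and the delta form (NM_001042724), which share the extracellular part of the protein and differ in the membrane-spanning and cytoplasmic parts. The array annotation gives the accession a probe was designed on. Whether a probe also binds the other transcript was not tested.

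**Figure D1:**
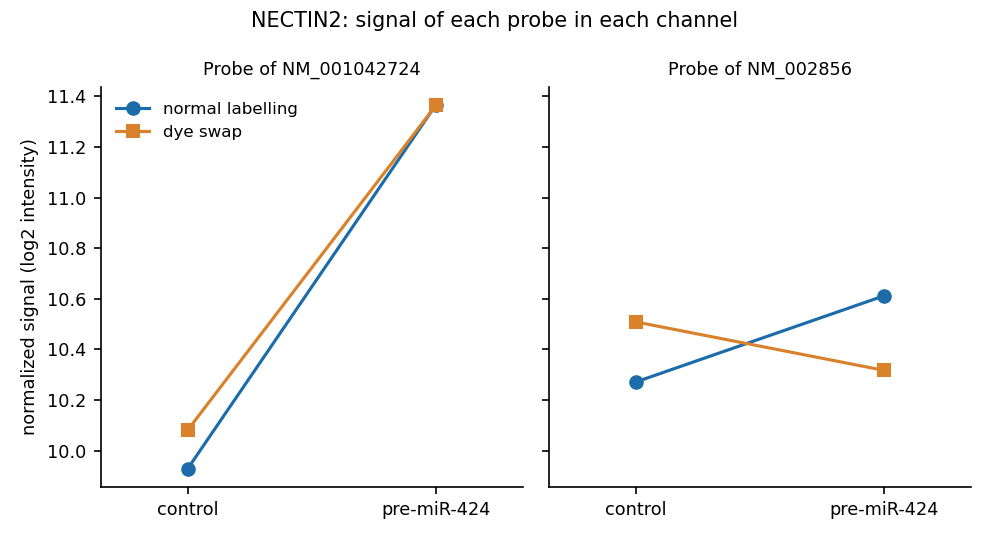
Normalized log2 levels at the 2 NECTIN2 probes, with pre-miR-424 and with control on each array. Both arrays show the higher pre-miR-424 level at the NM_001042724 probe (11.37 and 11.36 against 9.93 and 10.08), and the lines cross at the NM_002856 probe. Levels of different probes are not comparable with each other.

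The distance between the 2 NECTIN2 probes was larger than either probe's spread between arrays. The NM_001042724 ratio lay above the NM_002856 ratio by 1.10 on the array with normal labelling and by 1.47 on the dye swap (mean 1.29 ± 0.27 on the log2 scale, 2.44-fold). As background, 4 of 3420 genes with at least 2 measured probes (0.117%) had a pair of probes at least 2-fold apart the same way on both arrays. NECTIN2 ranked 3 among these genes by the smaller of the gaps on the arrays. Of the 873 genes whose measured probes carried more than 1 accession, 1 reached that distance, and it was NECTIN2. The disagreement of the NECTIN2 probes was known when the family was chosen, so these ranks are a description only. The smaller gap was 0.0059 for the 3 probes of PVR and 0.18 for the 5 probes of AFDN. A pair whose order changed between the arrays counted as 0, and the median over the 3420 genes was 0. A small value therefore need not mean agreement: PVR ratios ran from −0.24 to 0.20 on the array with normal labelling. An average over the probes of NECTIN2 gave 0.89 and 0.55 (mean 0.72), a value that neither probe showed.

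**Figure D2:**
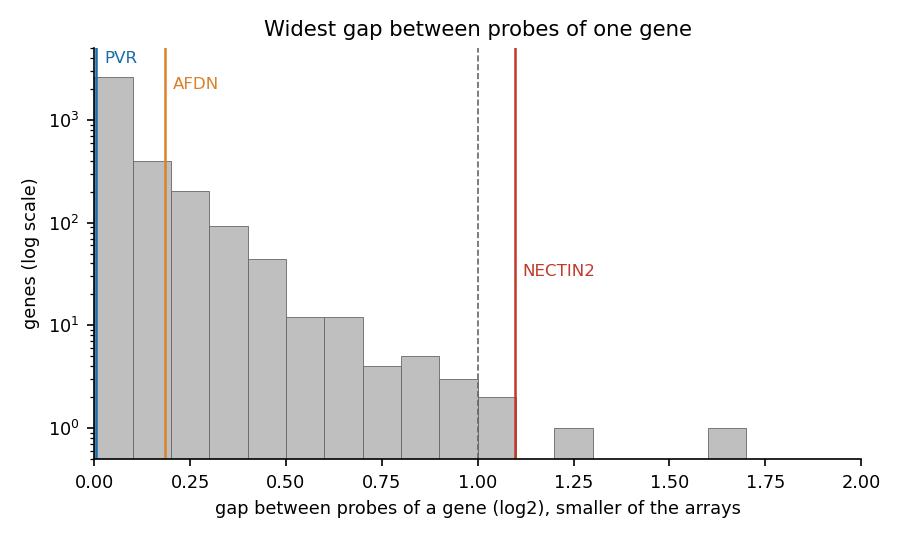
Number of genes, on a log axis, by the largest distance between 2 of their measured probes that was kept on both arrays, in log2 units. NECTIN2 lies at 1.10, with 4 of 3420 genes at or beyond 1, and PVR (0.0059) and AFDN (0.18) lie in the bulk.

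The 3 other nectins were measured by 1 probe each and none was called. NECTIN1, the herpesvirus entry receptor also called HVEC, had log2 levels of 9.86 and 9.80 with pre-miR-424 and of 9.88 and 10.03 with control. Its ratios were −0.02 and −0.23 (mean −0.12 ± 0.14), lower on both arrays by less than the spread between them. Its 2 spots gave −0.02 and −0.03 on the array with normal labelling and −0.17 and −0.28 on the dye swap. NECTIN3, a preferred partner of NECTIN1 across the cell contact that also binds PVR, had levels of 10.16 and 10.53 with pre-miR-424 and of 10.38 and 10.12 with control. Its ratios of −0.23 and 0.41 (mean 0.09 ± 0.45) differed in sign and had the widest spread of the 13 probes. NECTIN4, an adhesion molecule of skin and other epithelia and a measles virus receptor, had levels of 8.75 and 8.90 against 8.78 and 9.00. Its ratios of −0.03 and −0.10 (mean −0.06 ± 0.05) were slightly lower on both arrays.

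PVR, the ligand shared with NECTIN2 for CD226 and TIGIT, was measured by 3 probes of 1 accession (NM_006505), each in 2 spots. The brightest gave 0.04 and −0.02 (mean 0.01 ± 0.04). The next gave 0.20 and −0.05 (mean 0.08 ± 0.18), and the last −0.24 and −0.02 (mean −0.13 ± 0.16). None of the 3 exceeded 0.24 in size on either array, and their average was −0.02. PVR and NECTIN2 are both ligands of the same lymphocyte receptors, and only the NM_001042724 probe of NECTIN2 was called.

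AFDN was measured by 5 probes of 1 accession (NM_001207008), each in 1 spot. Their mean ratios were −0.01, −0.12, −0.21, −0.05 and −0.08, all below 0, with an average of −0.10. The lowest, −0.32 and −0.11 (mean −0.21 ± 0.14), stood at the 9.8th percentile of all measured probes. The dimmest, −0.20 and 0.04 (mean −0.08 ± 0.17), had raw signals of 82 to 147 in the 4 channel readings, from 1.83 to 3.54 times the local background. Of the 5 probes, 3 were lower on both arrays and 2 had opposite signs.

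**Figure D3:**
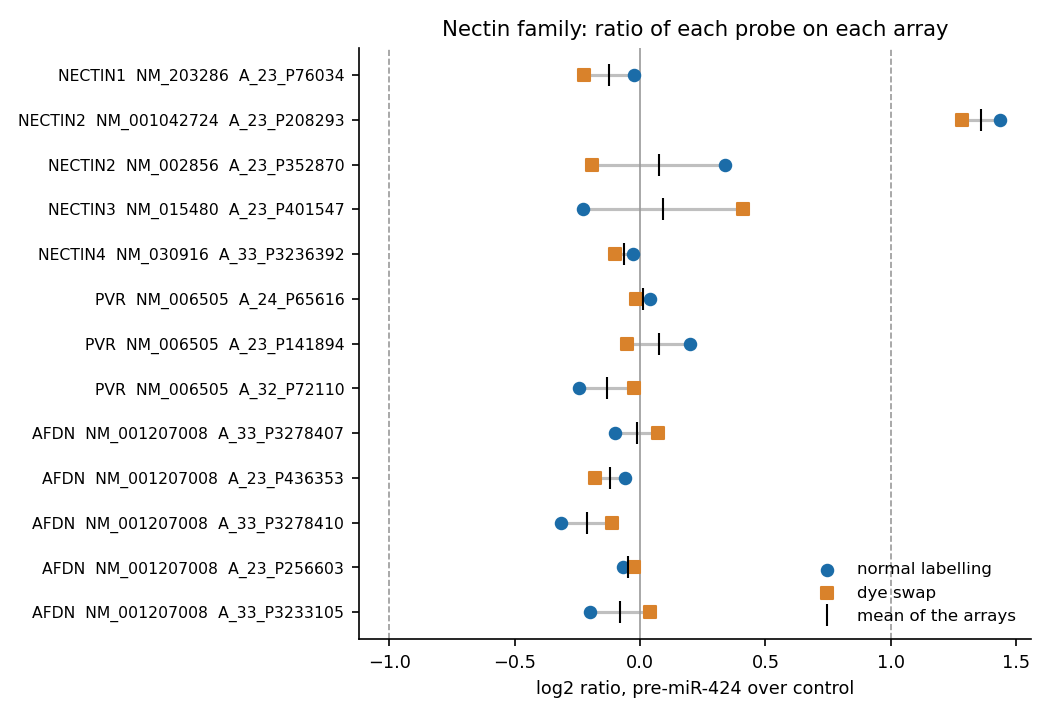
Log2 ratio of pre-miR-424 over control for the 13 probes of the family, with a point for each array. NECTIN2 NM_001042724 stands at 1.44 and 1.28, and the largest value of any other probe on either array is 0.41 in size.

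Apart from the NM_001042724 probe of NECTIN2, the 12 probes of the family had mean ratios of −0.21 to 0.09 with a median of −0.06. None was higher on both arrays (25.0% of all measured probes were), 6 were lower on both (26.4% of all measured probes were) and 6 had opposite signs. The count lower on both was 3 with centring on the median in place of loess, 4 with the scanner software's ratios and 7 without background correction, and the 0 higher on both held under each of these. For 8 of the 12 the mean was smaller than the SD between the arrays. The SDs ran from 0.03 to 0.45, against a median of 0.14 and a 95th percentile of 0.42 over all measured probes. Where a probe had 2 spots on an array, these differed by 0.0041 to 0.163 in log2 ratio over 10 such pairs. By the central 95% of all measured probes, −0.40 to 0.38, the called NECTIN2 probe was the 1 member outside.

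**Figure D4:**
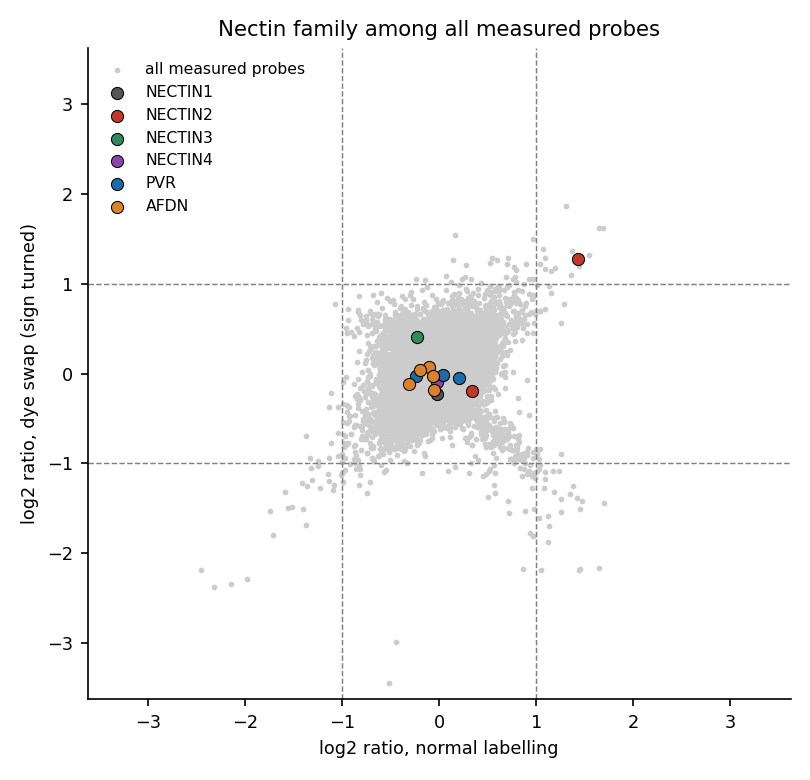
Log2 ratio on the array with normal labelling (horizontal) against the dye-swap array (vertical), both as pre-miR-424 over control, for all 25981 measured probes and the 13 probes of the family. The NM_001042724 probe of NECTIN2 lies at 1.44 and 1.28, and the other 12 lie within 0.41 of 0 on both axes.

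The partners of the family in adhesion and signalling were described from lists of 42 genes, by the brightest measured probe of each. Of these, 33 were measured, none was called (0.114% of all 14046 measured genes were), and none reached 1.5-fold on both arrays. In all, 12 were higher on both arrays and 14 lower on both, against 26.9% and 26.7% of all measured genes, and 7 had opposite signs. Their median ratio was −0.04, against −0.004 over all measured genes. The arrays gave the same sign for 78.8% of the list and for 53.6% of all measured genes. These shares were not matched for signal level or followed over the processing alternatives, so their difference was not interpreted.

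Among the cadherins and catenins 7 of 7 were measured, 2 higher and 2 lower on both arrays. The highest was CTNNB1, beta-catenin, which joins cadherins to alpha-catenin and also carries the Wnt signal, at 0.53 and 0.45 (mean 0.49 ± 0.06). The lowest was JUP, plakoglobin, a related protein of adherens junctions and desmosomes, at −0.44 and −0.78 (mean −0.61 ± 0.25). CDH1, E-cadherin, the main cadherin of epithelial cells, was at −0.11 and 0.01. Of the afadin partners and junction scaffolds 12 of 13 were measured, 4 higher and 6 lower on both arrays. The ends of this list were TJP1, the tight junction scaffold ZO-1, at 0.43 and 0.42 (mean 0.42 ± 0.01), and LMO7, which connects afadin with alpha-actinin, at −0.57 and −0.33 (mean −0.45 ± 0.17). The signalling genes acting from nectins on small GTPases gave 12 of 13 measured, again 4 higher and 6 lower on both arrays. The highest was the GTPase gene RAP1B at 0.34 and 0.80 (mean 0.57 ± 0.33). The lowest was PIP5K1C, which makes a membrane phosphoinositide at adhesions, at −0.39 and −0.42 (mean −0.40 ± 0.02).

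Of the 4 nectin-like molecules, CADM1 was measured, at 0.36 and 0.42 (mean 0.39 ± 0.05), and CADM2, CADM3 and CADM4 were not well above background. Of the 5 lymphocyte receptors of nectins and PVR, PVRIG was measured, at 0.25 and 0.06 (mean 0.16 ± 0.13). CD226, TIGIT, CD96 and CRTAM were not measured. A TIGIT probe was well above background in 2 channel readings, 1 with pre-miR-424 and 1 with control.

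**Figure D5:**
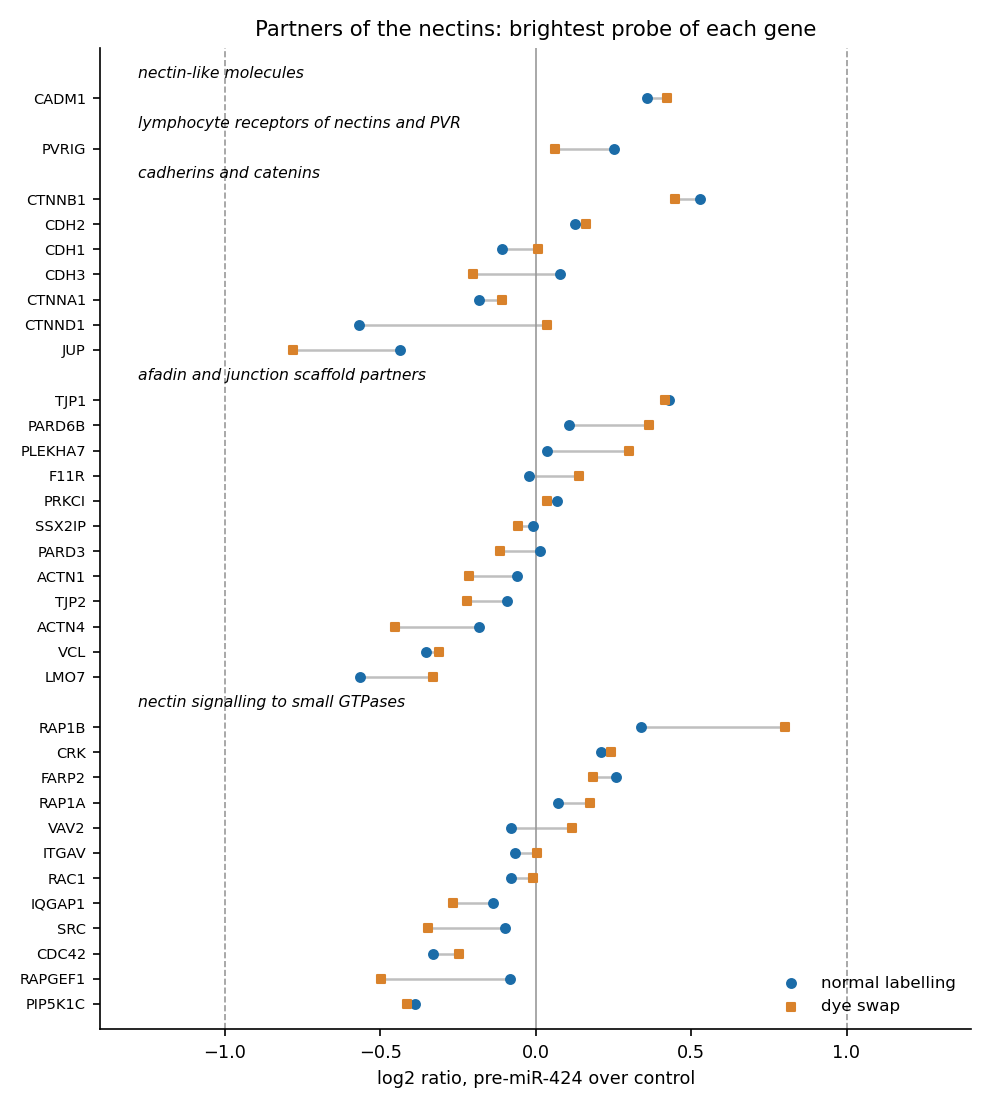
Log2 ratio of pre-miR-424 over control for the 33 measured partner genes, a point for each array, grouped by list. The points run from −0.78 for JUP on the dye swap to 0.80 for RAP1B on the same array, and no gene passes 1 on both arrays in the same direction.

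By the distance between the pairs of ratios on the 2 arrays, the 5 genes nearest to the NM_001042724 probe of NECTIN2 were MX1, CMPK2, IFI6, SWAP70 and EMC10. MX1, an interferon-induced antiviral GTPase, was the nearest at 1.45 and 1.28, a distance of 0.015. CMPK2 and IFI6 are interferon-induced as well, and lay at 0.11 and 0.20. SWAP70, at 0.27, and EMC10, a subunit of the ER membrane protein complex, at 0.32, followed. Because the NECTIN2 probe was selected for its high ratio, its nearest genes could only come from the few others with high ratios. Of all 14046 measured genes, 11 were called higher, NECTIN2 among them through its brighter NM_001042724 probe alone. Whether interferon-induced genes were frequent among these was not tested. The likeness covers 2 arrays counted as 1 replicate and says nothing about other samples. PVR and NECTIN2 lie near each other on chromosome 19 in the RefSeq table. Of the 5 genes between them 4 were measured and none was called, from −0.13 for CEACAM19 to 0.27 for BCL3, whose ratios were 0.37 and 0.18.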

How the data were processed

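The authors deposited the scanner output of each array, with median signal and median background intensities per spot and channel, Feature Extraction 10.7.3.1 log10 ratios and flags, and a series table of log2 ratios. The table followed the ratios of Cy5 over Cy3 computed here (r = 0.991 and 0.988). Per the labels limma was among the tools; the version and the steps were not given in the sources used here. The array design was annotated on hg19, and probes were named by RefSeq accession. Here normexp background correction (offset 50) and loess within each array were run with limma 3.58.1 in R 4.3.3, control spots with weight 0, flagged spots left out, spots of a probe averaged, and the dye swap's sign turned. Levels were set by Aquantile. A gene was read by its brightest measured probe. The calling step was tested on simulated data. The members and lists were chosen with earlier results of these data known. Alternatives are given in the closing section. The 2 arrays limit the precision.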

Additional observations from a re-analysis of the deposited data

How the results depend on the processing

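The NECTIN2 NM_001042724 ratio stayed between 1.30 and 1.41 over the processing alternatives with both arrays and between 1.28 and 1.44 on single arrays, with the probe called and no other probe of the family called throughout. The distance between the NECTIN2 probes was 1.28 to 1.31 over the former and 1.10 to 1.47 on single arrays, and no partner gene was called under any of them. The number of all probes called, 38, was 70 with the scanner software's ratios, 222 at 1.5-fold, and 89 to 136 on a single array; the cause was not tested. Genes with probes 2-fold apart numbered 4, and 8 with the scanner software's ratios. Of 130 values for single family probes under alternatives, 7 changed sign, over 6 probes whose main mean was at most 0.09 in size. Median centring moved the median of all probes to 0.10 on the array with normal labelling and −0.18 on the dye swap. Every ratio is already a paired comparison within an array. No paired test was possible, because the arrays count as 1 replicate. The arrays give no test of biological variation.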
